A study of Homo sapiens with 8 samples.

Results

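K562-only G4 peaks outside promoters are stretches of chromatin in which folded G-quadruplexes (G4s) were mapped in K562 cells and not in HepG2 cells. They lie outside the 1 kb upstream of gene starts. They were selected on the peak calls themselves: an interval of the K562 high-confidence list was taken when it shared no base with any interval of the lower-confidence HepG2 list and did not overlap the 1 kb upstream of any annotated transcription start site (TSS). The rule found 981 peaks among 9205 K562 high-confidence peaks (10.7%, 95% Wilson interval 10.0 to 11.3), or 56.4% (54.1 to 58.7) of the 1739 K562 peaks that lie outside promoters. The downstream side of a TSS was not removed, and 191 of the 981 peaks (19.5%) lay within 1 kb downstream of one. Because presence in K562 and absence in HepG2 chose these peaks, both are a description and not a result.

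K562 is an established line from chronic myelogenous leukemia that carries the BCR-ABL1 fusion and expresses erythroid genes, and HepG2 is an established line from hepatocellular carcinoma. In both, chromatin was treated with RNase A and precipitated with BG4, an antibody against folded G4s, and no other treatment separates the lines. The culture media differed, with RPMI for K562 and high-glucose DMEM for HepG2. The study also considered earlier G4 ChIP data of K562. For each line the labels name 3 libraries from G4 ChIP and 1 from input, and the series text calls the 3 technical replicates, whereas the merged lists draw on 8 replicates of K562 and 9 of HepG2. These came from 3 independent experiments with 2 to 3 technical replicates each, so the replicates behind a peak are not all independent. High-confidence peaks were found in at least 5 of 8 or 6 of 9 replicates, and lower-confidence intervals in at least 2. The lists give positions only, so depth, peak height and the spread between replicates are unknown, and every p-value below describes peaks of these merged lists rather than a spread between cultures.

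A G4 is a stack of planar guanine quartets that can fold where several short runs of G lie close together on the same strand. In cells G4s are found mostly in open, GC-rich chromatin, above all at promoters. Open chromatin away from promoters contains enhancers, which differ between cell types and carry the binding sequences of lineage factors. In red cell and megakaryocyte precursors GATA1, together with TAL1, KLF1 and NF-E2, acts at such elements, and in hepatocytes HNF4, FOXA and C/EBP factors do.

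The sequences of 5 of the peaks near blood genes are shown because they hold short G-runs beside the words of blood factors. Capitals mark GATA words, which are GATA with A or T before it and A or G after it, and the NF-E2 or AP-1 words TGACTCA and TGAGTCA, on either strand. Each line gives the whole peak, 5′ to 3′, on hg19, printed on the strand with more runs of at least 3 G. For the TFRC peak, where both strands held 5 such runs, the + strand is printed. The sequence upstream of HBE1 lies in the locus control region of the beta-globin genes.
Upstream of HBE1 (embryonic globin), chr11:5301907-5302111, + strand: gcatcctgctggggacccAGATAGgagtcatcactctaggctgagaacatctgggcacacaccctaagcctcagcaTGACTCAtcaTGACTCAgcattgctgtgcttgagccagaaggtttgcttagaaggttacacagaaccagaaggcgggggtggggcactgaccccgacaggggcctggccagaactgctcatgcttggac
Upstream of GATA1, chrX:48641413-48641501, - strand: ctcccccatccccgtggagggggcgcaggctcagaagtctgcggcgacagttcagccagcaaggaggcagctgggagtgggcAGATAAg
SLC4A1 intron (band 3 anion exchanger), chr17:42344083-42344264, + strand: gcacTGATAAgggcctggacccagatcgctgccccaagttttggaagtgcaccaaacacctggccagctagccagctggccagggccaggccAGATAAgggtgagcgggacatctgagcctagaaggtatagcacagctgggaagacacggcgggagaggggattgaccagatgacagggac
GFI1B intron (repressor of blood lineages), chr9:135860351-135860465, - strand: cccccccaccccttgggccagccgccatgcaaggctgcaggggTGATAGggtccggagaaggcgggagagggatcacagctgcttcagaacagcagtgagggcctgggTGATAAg
Upstream of TFRC (transferrin receptor), chr3:195835282-195835431, + strand: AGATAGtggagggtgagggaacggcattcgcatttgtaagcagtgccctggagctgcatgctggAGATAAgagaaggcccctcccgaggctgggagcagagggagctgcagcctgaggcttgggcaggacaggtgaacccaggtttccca

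The peak upstream of HBE1 held 1 GATA word and 2 NF-E2 words beside 5 runs of at least 3 G, and the SLC4A1 peak held 2, 0 and 8. Inside its interval none of the 5 peaks held a canonical G4 motif, for which 4 G-runs, each of 3 or more G, had to follow each other with 1 to 7 bases in between. The 300-bp windows centered on the GATA1 and GFI1B peaks did hold such a motif. Peaks with several motifs inside are shown by the middle 300 bp of the peak in an intron of PNPLA7 (a phospholipase gene) and by the peak in an intron of MAG (myelin-associated glycoprotein), where capitals mark runs of at least 3 G.
PNPLA7 intron, chr9:140387062-140387361, + strand: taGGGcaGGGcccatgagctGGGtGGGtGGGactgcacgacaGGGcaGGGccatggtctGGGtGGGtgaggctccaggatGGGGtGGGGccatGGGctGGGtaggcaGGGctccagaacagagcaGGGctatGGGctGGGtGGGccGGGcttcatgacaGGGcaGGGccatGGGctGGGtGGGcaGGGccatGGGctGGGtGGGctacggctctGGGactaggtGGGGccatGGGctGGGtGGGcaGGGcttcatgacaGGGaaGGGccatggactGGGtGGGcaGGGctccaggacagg
MAG intron, chr19:35790778-35791055, + strand: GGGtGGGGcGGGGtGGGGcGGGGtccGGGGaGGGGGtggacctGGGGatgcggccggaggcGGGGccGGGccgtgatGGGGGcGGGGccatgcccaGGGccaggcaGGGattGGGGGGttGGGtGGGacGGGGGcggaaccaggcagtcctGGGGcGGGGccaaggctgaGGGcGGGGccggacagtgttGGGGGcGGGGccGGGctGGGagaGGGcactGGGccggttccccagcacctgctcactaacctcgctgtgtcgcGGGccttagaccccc

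The PNPLA7 peak, 531 bp wide in all, held 10 canonical motifs that do not overlap, the most of any of the 981. The stretch repeats a short unit: GGGcaGGGccatGGGctGGG lay at chr9:140387221-140387240 and again at chr9:140387242-140387261, and GGGcGGGGccatGGGctGGG at chr9:140387360-140387379 and at chr9:140387381-140387400, all on the + strand. The MAG peak held 5 motifs. Neither sequence held a GATA word.

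The peaks were narrow. Their median width was 142 bp (95% interval of the median 137 to 148), the quartiles were 97 and 203 bp, and the range ran from 2 to 599 bp. A K562 lower-confidence interval with a median width of 288 bp surrounded each of them, so the width reflects how far the replicates overlapped, and the 981 peaks lay in 944 such intervals. Of these intervals, 35 held 2 peaks and 1 held 3. They are set beside 3 other sets of high-confidence peaks. The 377 common peaks outside promoters, which share a base with a HepG2 high-confidence peak, had a median width of 203 bp (188 to 219), and the 1990 HepG2-only peaks outside promoters, chosen by the mirror rule, one of 136.5 bp (129 to 141). The 1265 K562-only peaks in promoters, equally absent from HepG2 but overlapping the 1 kb upstream of a TSS, had a median of 145 bp (139 to 151).

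The widest of the 981 lay in an intron of RYR1, the ryanodine receptor of skeletal muscle (599 bp, chr19:38997592-38998190). It was followed by the PNPLA7 peak, a coding exon of CLEC11A (a growth factor for blood progenitors) at 519 bp, an intron of the noncoding gene PITX1-AS1 at 503 bp, and an intron of CAMSAP3 (a protein of microtubule minus ends) at 498 bp. Among these wide peaks, the RYR1 one held 1 canonical motif and the CLEC11A one held 0.

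At the edge of the rule, the 3 peaks nearest to a promoter lay 6, 7 and 8 bp from it, at TMEM275, SLC25A37 (the mitochondrial iron importer mitoferrin) and RIPOR3. On the other side, K562-only peaks at TDH-AS1, MIR3681HG and ITPR1 (an inositol trisphosphate receptor) had 1, 2 and 2 bases in a promoter and were left out. Toward HepG2, the smallest gaps were 2, 9 and 12 bp. A HepG2 lower-confidence interval lay within 500 bp of 91 peaks (9.28%, 7.62 to 11.3) and within 10 kb of 497, and the median gap was 9538 bp.

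The peaks were GC-rich, but less so than common peaks and more so than HepG2-only ones. In a 300-bp window centered on the peak, the median GC content was 62.7% (62.3 to 63.3), against 67.0% (66.3 to 68.3) in common peaks outside promoters, 56.0% (55.7 to 56.3) in HepG2-only peaks outside promoters, and 72.7% (72.0 to 73.0) in K562-only peaks in promoters. Windows of at least 65% GC numbered 384 of 981 (39.1%), against 63.7% of common peaks (odds ratio 0.367, 0.287 to 0.470, adjusted exact p = 1.56e-15) and 9.05% of HepG2-only peaks (6.47, 5.30 to 7.90, adjusted p = 3.09e-80). Windows with the composition of a CpG island, here at least 50% GC with an observed-to-expected CpG ratio of at least 0.6, made up 276 of 981 (28.1%, 25.4 to 31.0). This share was 53.6% in common peaks (odds ratio 0.339, 95% interval 0.265 to 0.434, adjusted exact p = 1.49e-17), 4.47% in HepG2-only peaks (8.36, 6.49 to 10.8, adjusted p = 1.34e-70) and 78.7% in K562-only promoter peaks (0.106, 0.0875 to 0.129, adjusted p = 6.06e-130). These and the following contrasts of sequence features were 42 two-sided Fisher's exact tests, adjusted together by the Benjamini-Hochberg method.

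A canonical G4 motif lay in 334 of the 981 windows (34.0%, 31.1 to 37.1). The share was 42.2% in common peaks, 14.7% in HepG2-only peaks and 54.1% in K562-only promoter peaks, and all 3 differences passed the test, with odds ratios of 0.708 (0.555 to 0.903, adjusted exact p = 0.00759), 3.00 (2.50 to 3.60, adjusted p = 6.37e-32) and 0.438 (0.369 to 0.521, adjusted p = 9.19e-21). GC content moved with these differences. Among windows of like GC content, in classes of 5 percentage points, the Mantel-Haenszel odds ratios were 1.15 (0.872 to 1.51), 1.18 (0.950 to 1.46) and 1.15 (0.930 to 1.43), so that no difference was detectable and 2 of the 3 directions turned. In coding promoters taken as windows of the same length, from 250 bp upstream to 50 bp downstream of a start, the share was 28.6%. Here and below these are 78503 windows for 20136 coding genes, so that a gene can enter more than once.

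The weaker 2-G motif, with G-runs of 2 or more and the same spacing, lay in 955 of 981 windows (97.3%), and in 86.3% of coding promoters. Inside the peaks themselves, 198 of 981 (20.2%, 17.8 to 22.8) held a canonical motif and 56 held at least 2. That share rose with the width, from 3.23% of the 93 peaks under 50 bp to 49.3% of the 75 peaks of at least 300 bp. Compared at equal width, the odds of a motif in the peak were 0.823 (0.613 to 1.10) of those in common peaks, 3.13 (2.46 to 3.98) of those in HepG2-only peaks and 0.462 (0.375 to 0.569) of those in K562-only promoter peaks. Besides PNPLA7 and MAG, the peaks with the most motifs lay in LINC02870 (a long noncoding RNA, 6 motifs), in FXYD1 and LGI4, which overlap (6 motifs), and in AGRN, the gene of the synapse protein agrin (5 motifs).

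The motifs were enriched at the center of the peaks. Windows of the same length 1 kb to the left and to the right of the center held a canonical motif in 13.6% and 13.8% of cases. In 273 peaks the motif was present at the center and missing on the left, and the reverse held in 72 (exact McNemar test, adjusted p = 5.50e-28 over 84 such tests). On the right the counts were 274 and 75 (adjusted exact p = 4.10e-27). The other sets outside promoters also held more at the center. Common peaks had 42.2% against 14.1% and 12.2%, and HepG2-only peaks 14.7% against 11.0% and 10.2%. GC-rich windows were likewise more frequent at the center of the K562-only peaks, at 39.1% against 8.97% and 11.0%. The part of GC content in the central enrichment was not tested.

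**Figure D1:**
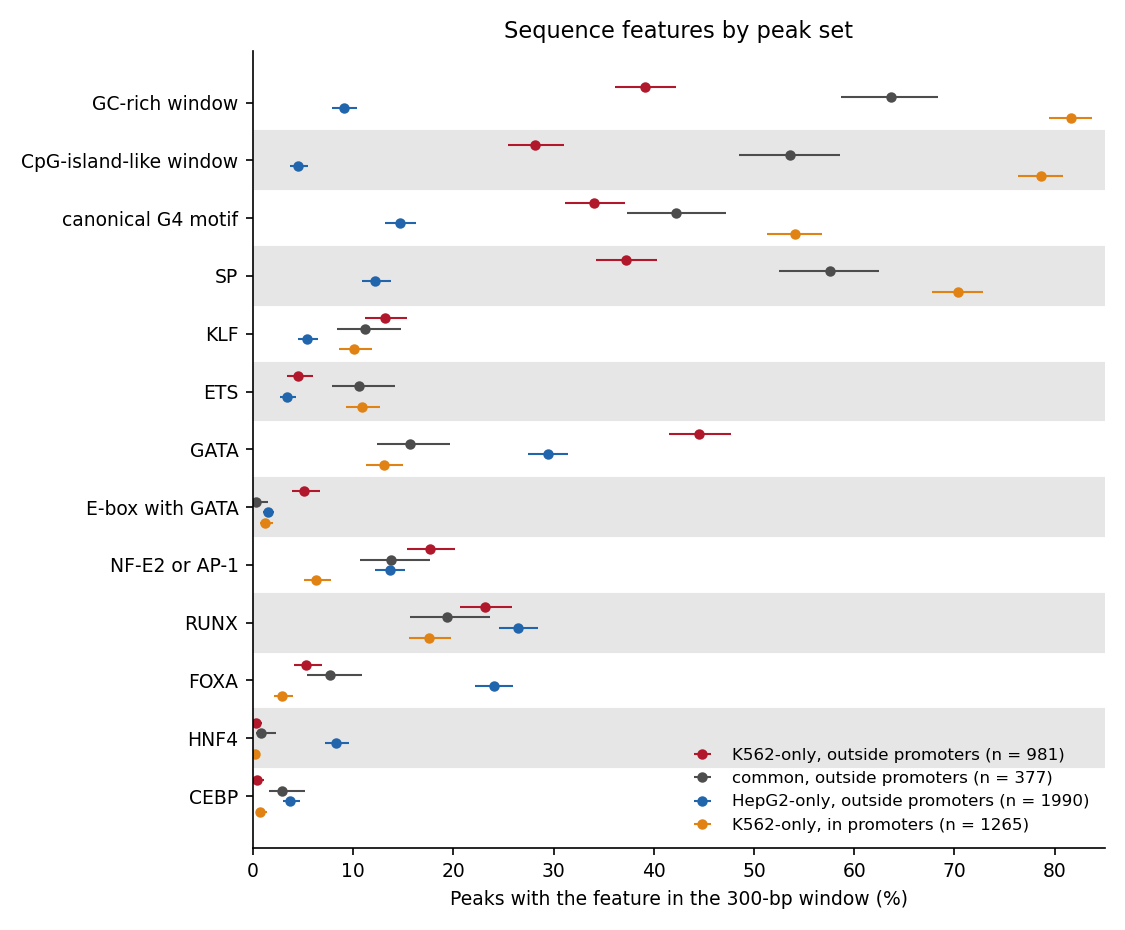
Share of peaks (x axis, %) with each sequence feature in the 300-bp window around the center, for the 4 peak sets; points are shares and bars are 95% Wilson intervals. K562-only peaks outside promoters have the highest share of GATA words (44.5%) and stand between common and HepG2-only peaks in GC-rich windows, CpG-island-like windows, canonical G4 motifs and SP words.

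GATA words were more frequent in the K562-only peaks than in each of the 3 other sets. At least 1 lay in 437 of 981 windows (44.5%, 41.5 to 47.7), against 59 of 377 common peaks (15.6%), 585 of 1990 HepG2-only peaks (29.4%) and 165 of 1265 K562-only promoter peaks (13.04%). Coding promoters of the same length held one in 20.9% of cases. The odds ratios were 4.33 (3.19 to 5.87, adjusted exact p = 2.89e-24), 1.93 (1.65 to 2.261, adjusted p = 1.64e-15) and 5.36 (4.36 to 6.58, adjusted p = 2.82e-62). A match is a description of the letters, and binding of a GATA factor was not measured.

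Since the words are poor in G and C, windows of like GC content were compared as well, an alternative added after the data were seen. The odds ratios were then 3.10 (2.23 to 4.31) against common peaks, 5.41 (4.39 to 6.68) against HepG2-only peaks and 2.02 (1.58 to 2.58) against K562-only promoter peaks. The same words read backwards, which have the same letters, lay in 13.8% of the 981 windows, 10.1% of common, 17.4% of HepG2-only and 5.30% of K562-only promoter windows. The forward words thus exceeded the backward ones in every set, and by the most among the K562-only peaks outside promoters.

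GATA words were also concentrated at the center. They lay in 26.1% and 27.3% of the windows 1 kb to the left and right of the K562-only peaks, and 318 peaks had one at the center only, against 137 on the left only (exact McNemar test, adjusted p = 3.85e-17). To the right the counts were 294 and 125 (adjusted exact p = 2.58e-16). In HepG2-only peaks the center held them in 29.4% and the left flank in 29.5%, with no detectable difference (adjusted exact p = 1). In common peaks the center held fewer, with 15.6% against 27.9% on the left (adjusted exact p = 9.74e-05). GC-rich windows made up 63.7% of the centers of common peaks and 12.7% of either flank. The part of GC content in these contrasts of center and flank was not tested.

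**Figure D2:**
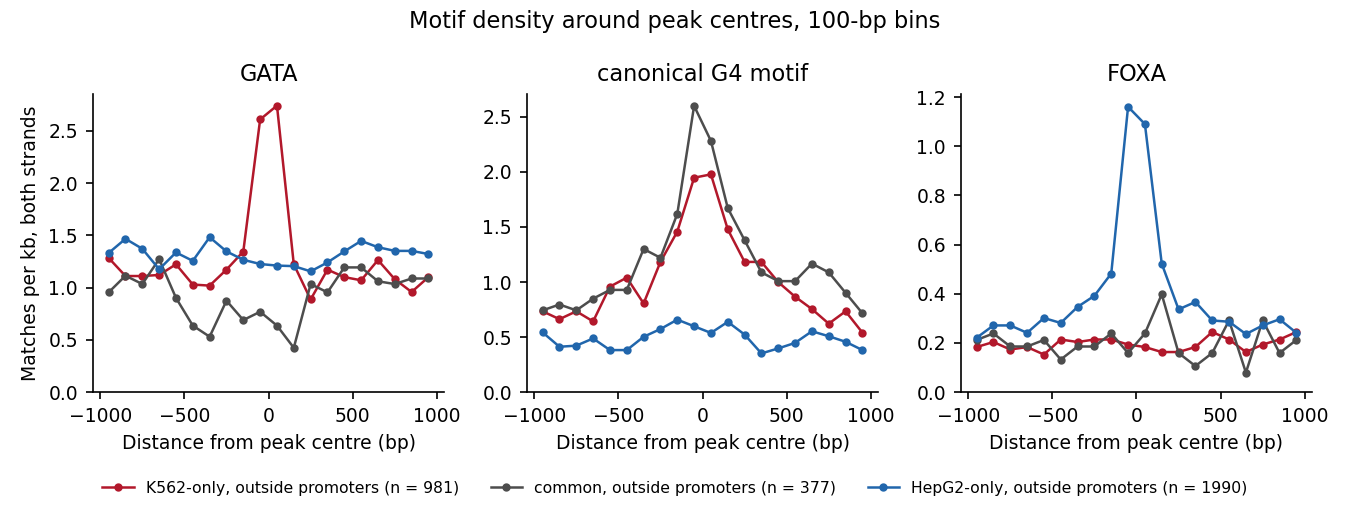
Matches per kb on both strands (y axis) in 100-bp bins of distance from the peak center (x axis, bp) for GATA words, canonical G4 motifs and FOXA words in the 3 sets outside promoters; each panel has its own y scale. GATA words reach 2.61 and 2.74 per kb in the central bins of the K562-only peaks, while FOXA words rise at the center of the HepG2-only peaks.

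GATA and G4 motifs tended to lie in different peaks. A canonical motif was present in 91 of the 437 windows with a GATA word (20.8%) and in 243 of the 544 without one (44.7%), and both were missing in 301 (odds ratio 0.326, 0.245 to 0.434). CpG-island-like windows made up 39 of 437 (8.92%) and 237 of 544 (43.6%), an odds ratio of 0.127 (0.0877 to 0.184). GC content differs between these windows and its part in the contrast was not tested.

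A combined motif of the kind read by TAL1 and GATA1 together, an E-box (CANNTG) followed by GATA after a spacer of 7 to 9 bases, lay in 50 of 981 windows (5.10%), in 1 of 377 common peaks, in 29 of 1990 HepG2-only peaks (1.46%) and in 15 of 1265 K562-only promoter peaks. It overlaps the GATA words where the letters around GATA allow. The odds ratios were 20.2 (2.78 to 147), 3.63 (2.28 to 5.78) and 4.48 (2.50 to 8.02), with adjusted exact p-values of 2.51e-06, 6.19e-08 and 6.98e-08. Within GC classes the first 2 were 13.4 (1.87 to 96.4) and 6.56 (3.84 to 11.2), and the contrast with promoters was 1.76 (0.942 to 3.29). The share in coding promoters was 1.06%. An intron of BCR held such a peak, as did introns of EPAS1 (an oxygen-sensing transcription factor), CR1 (complement receptor 1) and SH2B3 (an adaptor that restrains cytokine signals in blood cells), the last 3 named after their values were seen.

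Words of other blood and general factors differed from set to set. NF-E2 or AP-1 words lay in 173 of 981 windows (17.6%), against 13.6% of HepG2-only peaks (odds ratio 1.36, 1.10 to 1.67, adjusted exact p = 0.00636), 13.8% of common peaks (1.34, 0.957 to 1.87, adjusted p = 0.123) and 6.32% of K562-only promoter peaks (3.17, 2.40 to 4.19, adjusted p = 1.68e-16). Within GC classes these odds ratios were 2.104 (1.67 to 2.65), 0.899 (0.628 to 1.29) and 1.35 (0.988 to 1.85), so that against common peaks the direction turned. In both flanks of the K562-only peaks these words were rarer, at 5.10% and 4.49% (adjusted exact p = 3.44e-17 and 1.43e-21). The same held for HepG2-only peaks, with 5.48% and 4.52% in the flanks (adjusted exact p = 4.98e-18 and 3.83e-24), and for common peaks, with 5.31% and 4.24% (adjusted p = 0.000108 and 7.23e-06). KLF words (CCACACCC and CCGCACCC) lay in 129 windows (13.1%), against 5.43% of HepG2-only peaks (2.64, 2.02 to 3.45, adjusted exact p = 4.77e-12) and 11.1% of common peaks (1.21, 0.834 to 1.75, adjusted p = 0.379). RUNX words (TGTGGT and TGCGGT) lay in 227 windows (23.1%), and the difference passed the test neither against common nor against HepG2-only peaks (1.25, 0.933 to 1.68, adjusted exact p = 0.168, and 0.836, 0.699 to 0.999, adjusted p = 0.0686). Against K562-only promoter peaks KLF words gave 1.34 (1.04 to 1.74, adjusted exact p = 0.0360) and RUNX words 1.41 (1.15 to 1.74, adjusted p = 0.00181). Within GC classes the latter 2 odds ratios were 1.39 (1.04 to 1.87) and 1.07 (0.847 to 1.36).

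SP words (GGGCGGG), which themselves hold runs of 3 G, lay in 365 windows (37.2%), between HepG2-only (12.2%) and common peaks (57.6%), with odds ratios of 4.26 (3.54 to 5.13, adjusted exact p = 4.23e-53) and 0.437 (0.343 to 0.556, adjusted p = 4.25e-11). K562-only promoter peaks held them in 70.4% of cases (0.250, 0.209 to 0.298, adjusted exact p = 4.17e-55). Within GC classes the 3 odds ratios lay nearer to 1, at 1.53 (1.22 to 1.92), 0.692 (0.520 to 0.921) and 0.667 (0.537 to 0.828). ETS words (CCGGAAG) lay in 44 windows (4.49%), fewer than in common peaks (10.6%, odds ratio 0.396, 0.253 to 0.618, adjusted exact p = 0.000124). They were also fewer than in K562-only promoter peaks (10.8%, 0.387, 0.272 to 0.549, adjusted exact p = 4.17e-08). Against HepG2-only peaks (3.37%) the difference did not pass the test (adjusted exact p = 0.170). In coding promoters the shares were 3.78% for NF-E2 or AP-1, 6.00% for KLF, 19.6% for RUNX, 37.9% for SP and 12.1% for ETS words.

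Words of hepatocyte factors were rare. HNF4 words (CAAAGTCCA and CAAAGGTCA) lay in 3 of 981 windows, against 165 of 1990 HepG2-only peaks (odds ratio 0.0339, 0.0108 to 0.107, adjusted exact p = 3.36e-25). FOXA words (TGTTTAC and TGTTTGC) lay in 52 (5.30%), against 478 of 1990 (24.0%, odds ratio 0.177, 0.131 to 0.238, adjusted exact p = 2.80e-41), and C/EBP words (TTGCGCAA, TTGCGTAA, TTGCACAA and TTGCATAA) in 4, against 74 of 1990 (0.106, 0.0386 to 0.291, adjusted p = 5.23e-09). Within GC classes these 3 odds ratios were 0.0526 (0.0172 to 0.160), 0.253 (0.184 to 0.347) and 0.188 (0.0705 to 0.499). Against common peaks they were 0.382 (adjusted exact p = 0.379), 0.672 (adjusted p = 0.121) and 0.136 (adjusted p = 0.000477). Within GC classes they were 0.165 (0.0320 to 0.851), 0.508 (0.307 to 0.839) and 0.0483 (0.0111 to 0.210). FOXA words were more frequent than in K562-only promoter peaks (2.92%, 1.86, 1.21 to 2.86, adjusted exact p = 0.00636), but within GC classes this was 1.10 (0.674 to 1.78). The FOXA share at the center of the K562-only peaks, 5.30%, lay near the 6.52% and 6.32% of their flanks (adjusted exact p = 0.358 and 0.455), whereas C/EBP words were rarer at the center than in either flank (0.408% against 1.94% and 1.83%, adjusted p = 0.00397 and 0.00640). Coding promoters held HNF4, FOXA and C/EBP words in 0.659%, 6.15% and 1.57% of cases.

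**Figure D3:**
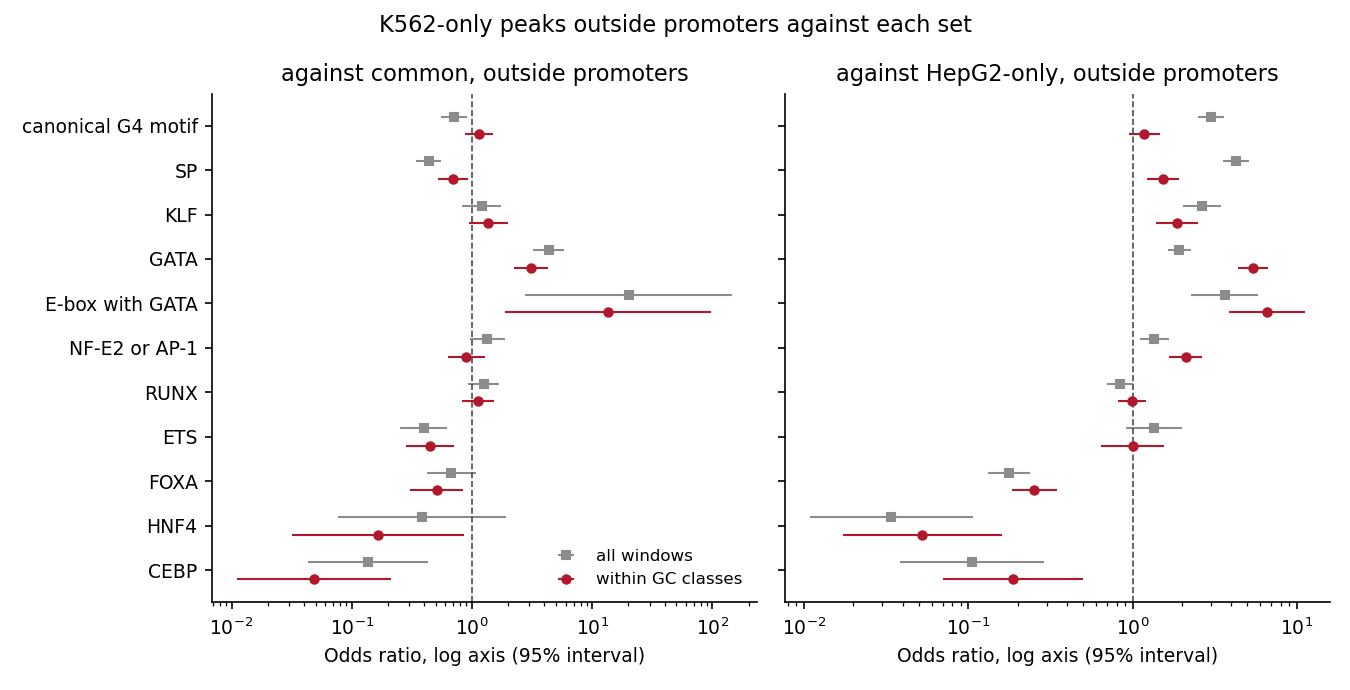
Odds ratios (x axis, log scale) of each motif in K562-only peaks outside promoters against common peaks (left) and HepG2-only peaks (right), over all windows (gray squares) and within classes of GC content (red circles); bars are 95% intervals and the dashed line marks 1. GATA and E-box with GATA lie above 1 in both panels under both measures, whereas the canonical G4 motif moves to 1.15 and 1.18 within GC classes.

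The centers of the peaks lay mostly inside genes. Introns of any annotated gene held 552 of 981 (56.3%, 53.1 to 59.3), 285 (29.1%, 26.3 to 32.0) were intergenic and 144 were exonic, of which 47 lay in coding exons, 19 in 5′ UTRs, 21 in 3′ UTRs and 57 in noncoding exons. Against HepG2-only peaks the intron share was lower (62.4% there, odds ratio 0.777, 0.665 to 0.907, adjusted exact p = 0.00325) and the exon share higher (9.40% there, 1.66, 1.32 to 2.09, adjusted p = 9.53e-05). Neither differed detectably from common peaks (1.13, 0.888 to 1.43, adjusted exact p = 0.440, and 1.10, 0.780 to 1.55, adjusted p = 0.666), but the intron contrast depends on how promoters are cut and reached 1.51 (adjusted p = 0.00856) when 1 kb on both sides of a TSS was removed. These were 8 Fisher's exact tests adjusted together.

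The rule removed only the upstream side of a TSS, so 191 peaks (19.5%, 17.1 to 22.1) lay within 1 kb downstream of one, against 28.4% of common peaks (odds ratio 0.610, 0.464 to 0.802, adjusted exact p = 0.00149) and 10.3% of HepG2-only peaks (2.11, 1.70 to 2.61, adjusted p = 1.52e-10). The median distance to the nearest coding TSS was 9279 bp (8066 to 10951). It was within 10 kb for 504 peaks (51.4%), and farther than 100 kb for 50.

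The classes differed in sequence. Peaks in coding exons were CpG-island-like in 30 of 47 windows (63.8%), whereas intronic and intergenic peaks were so in 24.6% and 25.6%. GATA words lay in 46.4% of intronic, 45.6% of intergenic and 36.2% of coding-exon windows, and in 2 of the 19 windows in 5′ UTRs.

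Where a peak with motifs on a single strand lay in coding genes of a single strand, the G-rich strand was the coding strand in 117 of 197 cases (59.4%, 52.4 to 66.0; exact two-sided binomial test against 50%, adjusted p = 0.0152). HepG2-only peaks gave 60.2% of 176 (adjusted exact p = 0.0152) and common peaks 55.7% of 79 (adjusted p = 0.368). The difference between the sets was not tested.

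Peaks were spread over 541 of 20136 protein-coding genes, of which 451 held 1 peak and 68 held 2. A peak in the gene body is thus found for 2.69% of all coding genes, against 4.84% for the 1990 HepG2-only peaks, and a gene whose TSS is the nearest coding one to a peak, within 50 kb, is found for 3.45% against 6.04%. Long genes have more room, so the counts that follow are given with gene lengths for the leading genes and for each list, and with no test.

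GSE1 held the most, with 9 in its 506680 bp, among 20 K562 peaks in the gene, but HepG2 had 68 lower-confidence intervals and 8 HepG2-only peaks there. BCR, the partner of ABL1 in the leukemia fusion, held 5 in 138334 bp, against 2 HepG2 lower-confidence intervals and 1 HepG2-only peak. Next came CDH23 (a cadherin), FLNC (the actin crosslinker filamin C), PIEZO1 (a mechanosensitive ion channel of red cells), ZMIZ1 (a transcriptional coregulator) and ZSWIM4, with 4 each. Per length these genes differed, with 13.9 peaks per 100 kb in FLNC, 10.9 in ZSWIM4 and 0.955 in CDH23. PIEZO1 had 34 HepG2 lower-confidence intervals in its body and FLNC had 1. Another 15 genes held 3 each. The first 3 of them by name, ARVCF (a catenin), CCND3 (cyclin D3) and a read-through gene named only by its identifier, ENSG00000267477, fill the list of 10, and GFI1B and ZFPM1 were among the others.

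Most peaks stood alone. Joined at gaps of at most 10 kb, the 981 formed 753 single peaks, 87 pairs, 15 groups of 3, 1 of 4 and 1 of 5, and 228 peaks (23.2%, 20.7 to 26.0) had another within 10 kb. That share was 10.3% among the 377 common peaks and 28.1% among the 1990 HepG2-only peaks, sets of other sizes. The group of 5 spanned 4973 bp at the start of FLNC (chr7:128467544-128472516), with widths from 48 to 209 bp and no HepG2 interval in between, and the group of 4 spanned 7947 bp in ZSWIM4. Among the 15 groups of 3, which are tied in size, 1 lay near HES5 and TNFRSF14, with 3 HepG2 lower-confidence intervals in its span. Others lay upstream of LAPTM5 (a lysosomal protein of blood cells, 10788 bp with no HepG2 interval) and in introns of ZMIZ1.

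Across chromosomes the peaks were uneven. Chromosome 19 held 164 (16.7%) or 2.77 per Mb, followed by chromosome 22 with 1.01 per Mb, and chromosome 13 held 1 peak. HepG2-only peaks were also frequent on chromosome 19 (2.03 per Mb), but they were densest on chromosome 17 (2.46 per Mb), where the K562-only density was 0.554, and chromosome 20 had 2.35 against 0.413. On chromosome X there were 14 K562-only and 0 HepG2-only peaks outside promoters. Chromosome 9 split by arm, with 1 K562-only peak on 9p and 53 on 9q, whereas HepG2-only peaks numbered 19 and 78.

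The fullest block of 1 Mb was the second of chromosome 19 (18 peaks, with 9 HepG2-only peaks). The next was chr22:19000001-20000000, with 17 peaks in or near genes such as TXNRD2, SEPTIN5 and ARVCF, among 45 K562 high-confidence peaks. HepG2 had 0 HepG2-only peaks outside promoters there, and had 7 high-confidence peaks and 51 lower-confidence intervals in all. Copy number was not measured here, and its part in these counts was not tested.

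**Figure D4:**
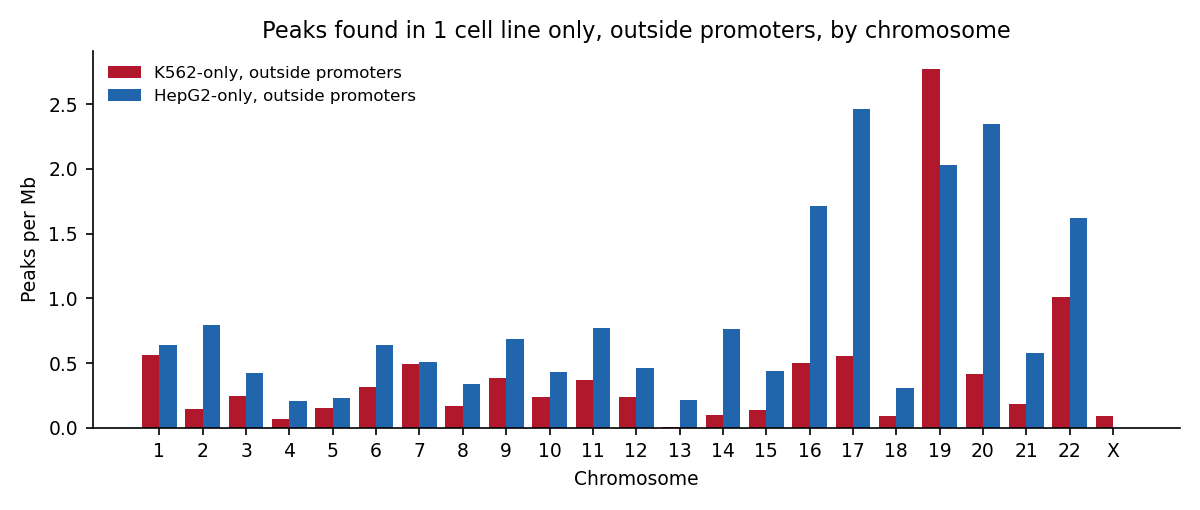
Peaks per Mb of chromosome length (y axis) of K562-only (red) and HepG2-only (blue) peaks outside promoters on each chromosome (x axis). The K562-only density is highest on chromosome 19 (2.77 per Mb), where it exceeds the HepG2-only density, and the HepG2-only density is the higher one on chromosomes 17 and 20.

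Several peaks lay in or near genes of the red cell. Of 43 erythroid genes, 7 had a peak in the body and 9 were the nearest coding gene, 10 by either link (3.99% of all coding genes are linked either way), and 1 was linked to a HepG2-only peak (7.21% of all). The median length of these genes was 23277 bp, against 27217 bp for all coding genes. HBE1 and HBG2 count in the body through the same 2 peaks, only because of long lifted transcripts, and HBG2 had no other link. The list was made with earlier results of these data known, and the counts are a description.

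Among globins, a peak of 205 bp lay at -10834 bp from HBE1 and another of 88 bp at chr11:5309456-5309543, beyond the first. Both are counted in the bodies of HBE1 and HBG2, the embryonic and a fetal globin, only because the lifted annotation has transcripts of these genes over 237308 and 252418 bp. Membrane proteins of the red cell had 5 linked peaks beyond that. SLC4A1 had a peak at 1328 bp inside the gene, with 2 GATA words in it. GYPC (glycophorin C) had a pair, at -10720 and 1841 bp. EPB41 (protein 4.1) had a peak at -3040 bp and ANK1 (ankyrin) one at -30773 bp from its nearest coding start, inside the gene.

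Genes of iron, sugar and heme handling followed. TFRC, the receptor that brings iron into the cell, had 2 peaks far upstream, at -26392 and -45703 bp, of 150 and 118 bp. SLC25A37 had a peak at -1065 bp, just beyond the promoter limit. SLC2A1, the glucose transporter GLUT1, had a wide one of 470 bp in an intron at 6681 bp, and BLVRB (biliverdin reductase B) one of 66 bp at 955 bp. In all, 10 of the 12 peaks linked to erythroid genes held a GATA word in the window and 1 held a canonical G4 motif.

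Of 28 transcription factors of blood lineages, 4 had a peak in the body and 6 by either link (against 3.99% of all coding genes), and 5 were linked to HepG2-only peaks (against 7.21%). Their median length was 35684 bp. GATA1 itself had a peak of 89 bp at -3491 bp, with a GATA word at its end as printed. GFI1B had 3, at -2288, -2200 and -1658 bp from its nearest coding start, the first 2 of which share a lower-confidence interval. CBFA2T3, the corepressor ETO2, had 4, from -1968 to -27142 bp. ZFPM1, the GATA1 cofactor FOG1, had 3 in introns at 38147 to 44326 bp, although HepG2 had 2 HepG2-only peaks and 37 lower-confidence intervals in that gene. KLF1, the erythroid KLF factor, had 1 of 363 bp at 1975 bp, with a canonical motif and no GATA word. RUNX1 had 1 of 67 bp in an intron, and also a HepG2-only peak. GATA words lay in 11 of these 13 windows.

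Of 15 megakaryocyte and platelet genes, 2 were linked to the peaks (against 3.99% of all coding genes) and 1 to a HepG2-only peak (against 7.21%), with a median gene length of 16649 bp. Among the 2 was GP1BB (a subunit of the platelet receptor for von Willebrand factor) with 3, at -1101, 717 and 7146 bp from its start. Taken over the 3 blood lists, 25 of 30 linked peaks had a GATA word in the window, 5 had a canonical G4 motif there and 2 had one inside the peak. Over all 981 peaks, 44.5% of windows held a GATA word and 34.0% a canonical motif.

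Of 21 genes of BCR-ABL1 signalling, 4 were linked to the K562-only peaks (against 3.99% of all coding genes) and 7 to HepG2-only peaks (against 7.21%). These genes are long, with a median of 83516 bp against 27217 bp for all coding genes. BCR had 1 HepG2-only peak in its body and 6 linked K562-only peaks, 5 in its body, at chr22:23560802-23560909, chr22:23562117-23562266, chr22:23566173-23566354, chr22:23593897-23594023 and chr22:23623999-23624244. The third of these held 2 GATA words. ABL1 had 0 K562-only peaks and 1 HepG2-only peak. CRKL (an adaptor of the kinase), PIK3CD (a subunit of the lipid kinase PI3K) and LYN (a kinase of the SRC family) had 1, 2 and 1. Here 2 of the 10 linked windows held a GATA word.

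Of 35 hepatocyte genes, 1 was linked to the K562-only peaks (against 3.99% of all coding genes) and 8 to HepG2-only peaks (against 7.21%), with a median gene length of 20311 bp. The one was TF, the plasma iron carrier transferrin, with 2 peaks of 5 and 103 bp that share a lower-confidence interval, both with a GATA word in the window. HNF4A, a transcription factor of liver, had 4 HepG2-only peaks and 0 K562-only peaks.

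**Figure D5:**
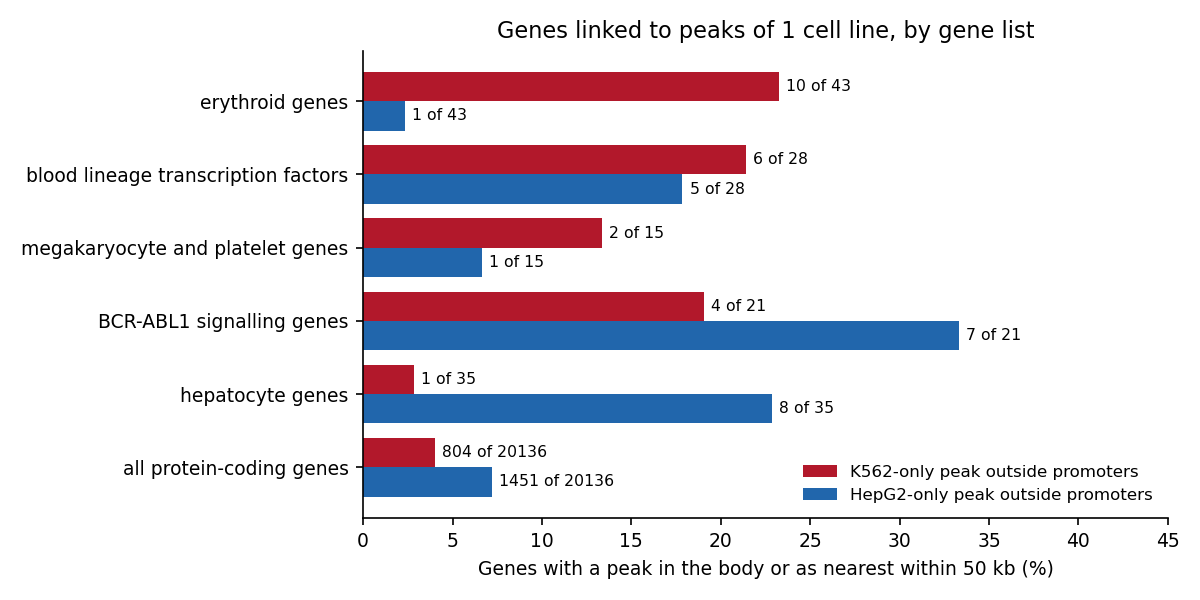
Share of the genes of each list (x axis, %) with a K562-only (red) or HepG2-only (blue) peak outside promoters in the gene body or as the nearest coding TSS within 50 kb; labels give the counts. Erythroid genes are linked to K562-only peaks in 10 of 43 cases and to HepG2-only peaks in 1, hepatocyte genes in 1 and 8 of 35. Among the erythroid genes, HBG2 is linked only through long transcripts of the lifted annotation.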

How the data were processed

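Per the labels and the study's methods, G4 ChIP reads were aligned to hg19 with BWA, the authors called peaks replicate by replicate with MACS2 (q-value under 0.05), and replicates were merged with bedtools multiinter. The 4 deposited lists hold interval positions (0-based starts, ends) and no counts, heights or p-values, so depth is unknown and no replicate error could be computed. A merged list keeps only the stretch shared by enough replicates, which narrows peaks and can split them.

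Intervals were compared on GRCh37 with GENCODE version 44 lifted to that build. Sharing 1 bp counted as overlap, and mitochondrial intervals were left out. Positions are written 1-based. Motifs were searched on both strands in 300-bp windows around the peak centers. Host genes hold the center, and distances run from the nearest coding TSS, negative when upstream. GC-rich windows had at least 65% GC. Peaks were compared with two-sided Fisher's exact tests, Mantel-Haenszel odds ratios (Robins, Breslow and Greenland variance), exact McNemar and binomial tests, and Benjamini-Hochberg adjustment at 0.05. Neighboring peaks are not independent. Overlap, motif and odds-ratio functions were tested on simulated data.

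The members, gene lists and tests were chosen with earlier results of these data known. Named genes are the 10 with the most peaks, listed genes with a linked peak, the 5 widest peaks, the 5 with most motifs, the 5 largest groups, and the 3 peaks nearest the promoter limit on each side; a few items of this rule are not reported here. Alternatives covered the definitions of absence, promoter, width, window, loop length, overlap and spacing. Within-GC comparisons, backward words, flanks, lower-confidence lists and leaving out chromosome 19 were added after the data were seen. Python 3.11.15, numpy 2.4.6, scipy 1.17.1, samtools 1.23.1, pysam 0.24.0 and matplotlib 3.10.9 were used.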

Additional observations from a re-analysis of the deposited data

How the results depend on the processing

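Of 179 recomputed values, 168 kept their direction and their side of the threshold or moved by less than their interval. The number of peaks ran from 783 to 1362. The share with a canonical G4 motif moved to 30.8% when 1 kb on both sides of a TSS was removed, to 27.3% and 43.9% in windows of 200 and 500 bp, to 20.2% in the peak interval itself, and to 53.0% with loops of up to 12 bases. Within GC classes the odds ratio of that motif turned from below 1 to 1.15 against common peaks and to 1.15 against K562-only promoter peaks, and fell to 1.18 against HepG2-only peaks. That classing compares windows of like GC content, in classes of 5 percentage points. The intron odds ratio against common peaks passed the threshold, at 1.29, with promoters of protein-coding transcripts only and, at 1.51, with 1 kb removed on both sides of a TSS; the cause was not tested. GATA odds ratios stayed above 1 in all 13 alternatives, including 1 peak per 10 kb. They ran from 3.00 to 4.79 against common, 1.45 to 5.41 against HepG2-only and 2.02 to 6.32 against promoter peaks. They passed the threshold wherever a test was run, and the comparison within GC classes gave intervals and no test. Leaving out single replicates could not be done, because the lists merge them, and the HepG2 lists ask for other replicate numbers than the K562 lists. No paired analysis was possible because the lists carry no replicate numbers. A peak missing from a HepG2 list may lie below the calling threshold there, which positions alone cannot show.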

Other observations

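Words were also counted in lower-confidence intervals that are no members of the peak sets above, although the rule used the HepG2 lower-confidence list to define absence. Lower-confidence intervals outside promoters that hold no high-confidence peak and share no base with the other line's lists numbered 4213 in K562 and 11317 in HepG2. GATA words lay in 30.0% (28.7 to 31.4) of the K562 windows and 20.6% (19.9 to 21.4) of the HepG2 windows (odds ratio 1.65, 1.53 to 1.79, Fisher's exact test, adjusted p = 2.25e-33). The E-box with GATA lay in 3.37% against 1.35% (2.55, 2.02 to 3.21, adjusted exact p = 1.59e-14), FOXA words in 4.23% against 11.99% (0.324, 0.276 to 0.380, adjusted p = 9.16e-54) and HNF4 words in 0.498% against 3.12% (0.156, 0.100 to 0.242, adjusted p = 5.89e-27). NF-E2 or AP-1 words lay in 11.3% against 8.09% (1.45, 1.29 to 1.63, adjusted exact p = 1.27e-09), ETS words in 4.25% against 2.70% (1.602, 1.33 to 1.93, adjusted p = 1.73e-06), KLF words in 9.45% against 6.69% (1.46, 1.28 to 1.65, adjusted p = 1.63e-08) and SP words in 20.8% against 10.3% (2.28, 2.07 to 2.51, adjusted p = 1.71e-60). RUNX words lay in 25.6% against 25.9% (0.982, 0.906 to 1.07, adjusted exact p = 0.680). CpG-island-like windows made up 18.6% and 6.01%, and GC content was not held equal here.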
